A study of Mus musculus with 28 samples.

Results

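The 48 genes described here are members of the cell division program of mouse skin, chosen by name and found by an exact match of the gene name in both deposited count tables. All 48 were found once in each table, among 55573 genes in one and 57126 in the other, and all 48 had enough counts to be tested in both. They were placed in 7 role groups: 7 G1/S cyclins and transcription factors, 9 origin licensing and helicase genes, 5 genes of nucleotide supply and the replication fork, 7 mitotic entry kinases and cyclins, 6 genes of the spindle checkpoint and the anaphase promoting complex, 9 chromosome, kinetochore and spindle genes, and 5 cytokinesis genes. Below, the licensing and nucleotide groups together are called the 14 S phase members, and the last 4 groups the 27 mitotic members.

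Skin RNA was sequenced in 28 libraries from 12-week-old female mice whose hair had been removed 5 days before, in 2 experiments on Vsir, which encodes the inhibitory immune checkpoint protein VISTA. The whole-body experiment held wild-type mice (WT) and Vsir-/- mice (KO), 3 libraries per group. The keratinocyte experiment held Vsirfl/fl mice without Cre recombinase (FL) and K14creVsirfl/fl mice (cKO), in which the keratin 14 promoter drives Cre in basal keratinocytes and their descendants, so that other cells of the skin keep the gene, 4 libraries per group. Each genotype was taken without ultraviolet light (NoUV) and after 500 mJ/cm2 of UVB (UV), and the design text calls the controls littermates and the libraries biological replicates. The labelled tissue is skin, while the series title speaks of epidermis. The interval between UVB and harvest is 3 h in titles and design text but 1 day in the treatment protocol, and the labels do not settle which holds.

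Cells that enter division switch on cyclin D and E genes and E2F factors, then load the MCM helicase onto replication origins and make nucleotides for DNA synthesis in S phase. Cyclin A, cyclin B, CDK1, PLK1 and the Aurora kinases then drive mitosis, in which the spindle checkpoint holds chromosome separation until all kinetochores are attached. In skin, most dividing cells lie in the basal layer of the epidermis and in the matrix of growing hair follicles, so that the hair cycle sets much of the division in the tissue.

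Libraries of the whole-body experiment held 30.47 to 43.84 M counts and those of the keratinocyte experiment 7.12 to 31.14 M, with FL_NoUV replicate 1 (7.12 M) and cKO_UV replicate 3 (7.51 M) the shallowest. The smallest count of any member in any library was 9, for Mybl2. Vsir itself was at 34.5 to 46.1 CPM (counts relative to library size, scaled between libraries by TMM) in WT_NoUV against 5.07 to 6.87 CPM in KO_NoUV, and at 20.2 to 23.96 CPM in WT_UV against 1.98 to 3.76 CPM in KO_UV. In whole skin of the keratinocyte experiment Vsir ranges overlapped, 19.4 to 38.5 CPM in FL_NoUV and 17.0 to 45.0 CPM in cKO_NoUV. Keratinocyte RNA was abundant in all libraries, with Krt5 at 1703 CPM or more and Krt14 at 732 CPM or more.

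**Figure D1:**
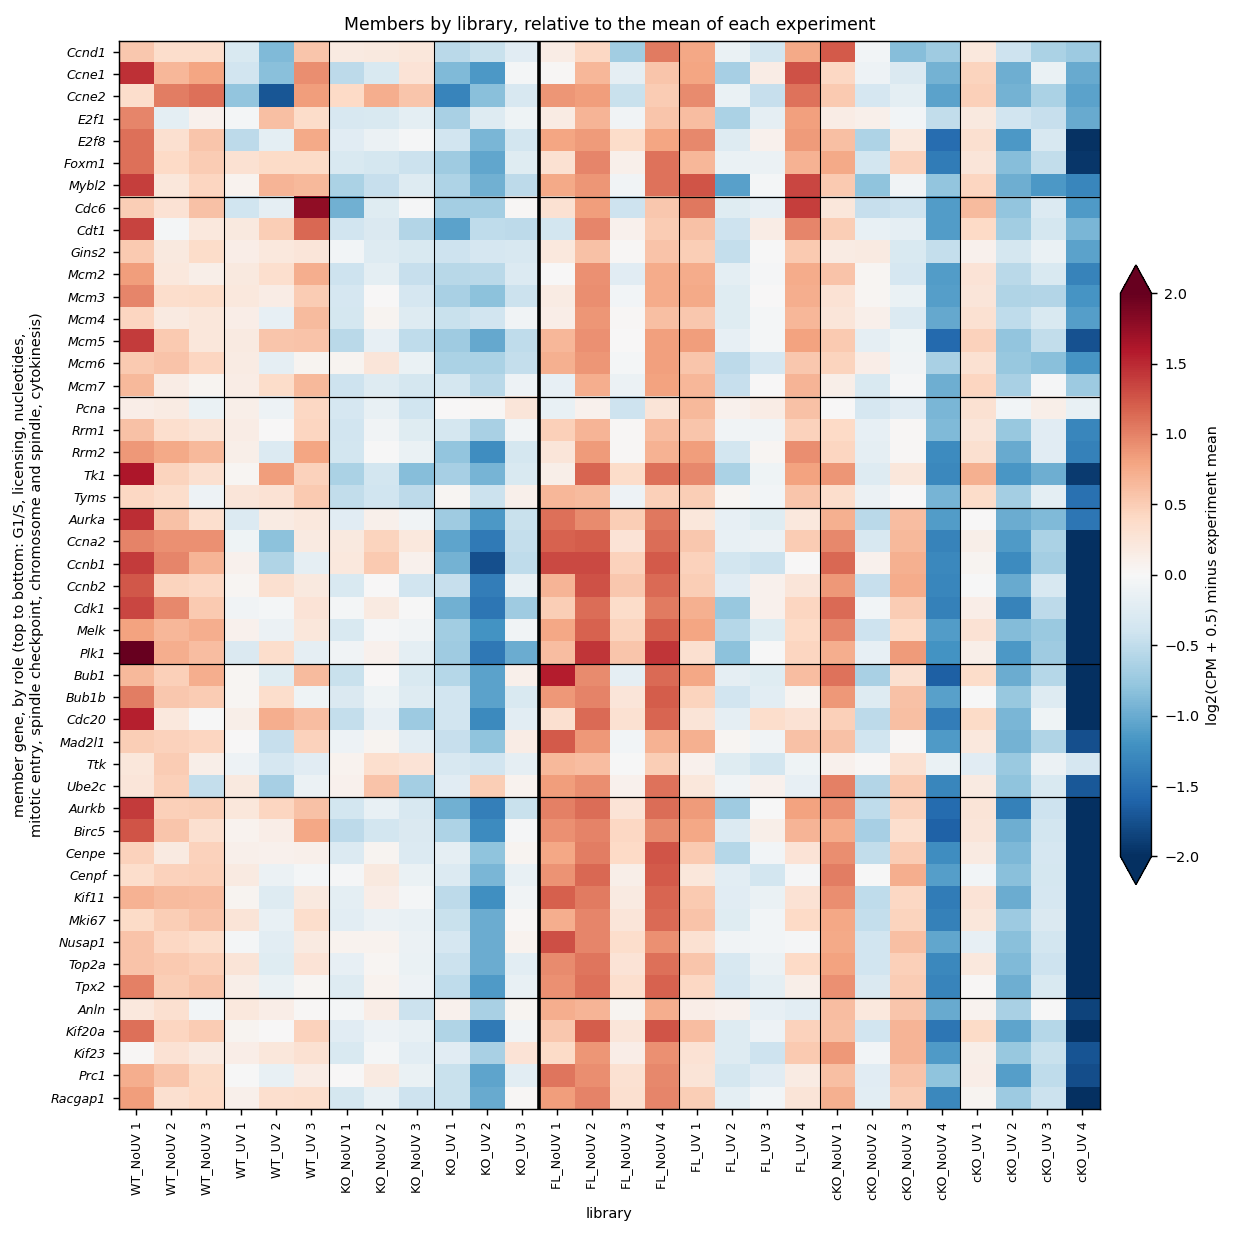
Level of the 48 members (rows, by role group, with lines between groups) in the 28 libraries (columns, by group), as log2(CPM + 0.5) minus the gene's mean over the libraries of the same experiment; the thick line separates the experiments. Members moved together within a library: cKO_UV replicate 4 and cKO_NoUV replicate 4 were low across nearly all rows, and the 3 KO_NoUV libraries lay below the 3 WT_NoUV libraries for 44 members.

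Per kilobase of exon, the most abundant member of the WT_NoUV libraries was Pcna, the sliding clamp of the replication fork, at 34.3 ± 3.79 CPM per kb (SD, n = 3). Mki67, which encodes the proliferation antigen Ki-67 that coats mitotic chromosomes, followed at 29.6 ± 1.80 CPM per kb and Top2a, the topoisomerase that untangles sister chromatids, at 21.8 ± 0.71 CPM per kb. In the FL_NoUV libraries Mki67 led with 61.8 ± 15.4 CPM per kb (SD, n = 4), and Ccnd1, the cyclin D of G1, came next with 25.8 ± 12.1 CPM per kb. The lowest members were the same in both groups: the licensing factor Cdc6 (1.35 ± 0.15 in WT_NoUV and 2.03 ± 0.70 in FL_NoUV, CPM per kb), the transcription factor Mybl2 (1.5 ± 0.74 and 1.26 ± 0.41) and the helicase subunit Gins2 (1.95 ± 0.23 and 1.33 ± 0.27). The 2 experiments carry different batch dates, so levels are compared only within an experiment below.

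The first question was how UVB changed the division genes. After UVB, genes that carry cells into mitosis were lower in wild-type skin, while S phase genes moved less. The NoUV and UV libraries of the whole-body experiment also separated by Hoxc10, a gene of body position, as given below. Of the 48 members, 7 were lower and 0 higher in WT_UV than in WT_NoUV by edgeR's quasi-likelihood test (Benjamini-Hochberg adjusted p under 0.05 over all 20365 genes tested), against a background of 9.84% of all genes called lower and 8.91% called higher. The median log2 fold change was -0.42 over the 48 members and -0.01 over all genes. It was -0.12 over the 14 S phase members and -0.47 over the 27 mitotic members.

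The mitotic entry group moved most, with 4 of 7 members lower and a group median of -0.94 on the log2 scale. Ccnb1, the B cyclin that activates CDK1 at the onset of mitosis, was at 41.7, 30.9 and 25.1 CPM in WT_NoUV replicates 1, 2 and 3 and at 16.4, 10.0 and 13.5 CPM in WT_UV. Each UV library lay below each unexposed one, and the log2 fold change was -1.29 (SE 0.30, edgeR adjusted p = 0.0109). Ccna2, the A cyclin of S phase and G2, fell from 72.6, 68.9 and 68.9 CPM to 34.2, 20.4 and 41.2 CPM (log2 fold change -1.14, SE 0.25, edgeR adjusted p = 0.00865). Cdk1, the kinase that both cyclins activate, was at 46.8, 35.8 and 26.4 CPM without UV and at 17.3, 17.7 and 21.9 CPM after it (-0.94, SE 0.23, adjusted p = 0.0132). Plk1, a kinase of mitotic entry and spindle assembly, was at 31.7, 12.1 and 11.1 CPM without UV and at 5.71, 9.18 and 6.15 CPM after it (-1.38, SE 0.37, adjusted p = 0.0195). WT_NoUV replicate 1 was the highest of the 3 for Ccnb1, Cdk1 and Plk1, and without it the fold change of Plk1 was -0.73 and its call was lost. The call of Plk1 was also lost without WT_UV replicate 1 or WT_UV replicate 3.

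The other 3 called members came from 3 groups. Ttk, the kinase MPS1 of the spindle checkpoint, was at 29.5, 35.6 and 27.2 CPM without UV and 23.2, 19.8 and 21.4 CPM after it (-0.52, adjusted p = 0.0279). Tpx2, a spindle assembly factor that activates Aurora A, was lower by -0.70 (adjusted p = 0.0468). Mcm6 was the only called S phase member, at 70.4, 72.6 and 65.6 CPM without UV and 54.7, 43.2 and 50.7 CPM after it (-0.49, adjusted p = 0.0261). Its partners in the hexameric MCM helicase did not pass, and Mcm2 was at 41.9, 26.9 and 25.4 CPM against 26.9, 29.6 and 38.9 CPM (0.02, 95% interval -0.43 to 0.47). Pcna (0.09), E2f1 (-0.05), Mki67 (-0.32), Top2a (-0.41), Ccnd1 (-0.51) and Ccne1 (-1.01) were not called either. Ccna2, Ccnb1 and Cdk1 stayed past the threshold whichever 1 of the 6 libraries was left out, Tpx2 lost its call with each of them, Ttk without WT_NoUV replicate 2 or WT_UV replicate 2 or 3, and Mcm6 without WT_NoUV replicate 2 or WT_UV replicate 2. The count was 4 without WT_NoUV replicate 2.

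In the KO mice 5 members were called lower and 0 higher, against 11.1% of all genes called lower and 11.3% called higher, so the share of members lay no higher than that of all genes. All 5 (Ccna2, Mcm6, Cdk1, Ccnb1 and Ttk) were also called in WT, which is 71.4% of the WT calls and 100% of the KO calls. The overlap of WT and KO calls over all genes was not counted, so this overlap cannot be called particular to the members. Ccnb1 was at 17.96, 22.4 and 16.4 CPM in KO_NoUV and at 7.80, 4.21 and 10.7 CPM in KO_UV (-1.31, SE 0.31, edgeR adjusted p = 0.00837). Cdk1 was at 17.6, 20.5 and 18.03 CPM against 9.11, 6.33 and 10.9 CPM (-1.09, SE 0.23, adjusted p = 0.00512), again with no overlap. Plk1, at 6.67, 7.51 and 6.08 CPM against 4.14, 2.3 and 3.3 CPM, missed the threshold (-1.06, adjusted p = 0.0596). Ttk lost its call without any 1 of KO_NoUV replicates 2 and 3 and KO_UV replicates 1 and 2, and without KO_UV replicate 3 the count was 8. Same-numbered KO libraries deviated together, and with the number as a block in a fit of the KO groups alone, added after seeing the data, 13 members were lower and 1 higher, against 22.2% and 20.3% of the 19406 genes tested there. This share again lay near that of all genes, and the count of lower members was 8 with pair 1 or pair 2 left out and 22 with pair 3 left out. Plk1 (-1.08, edgeR adjusted p = 0.00338) and Ccnd1 (-0.61, adjusted p = 0.000778) were among the lower members, and the higher one was Pcna (0.39, adjusted p = 0.0119). The labels do not name pairs, and the pairing was chosen from these same values, so these p-values depend on that choice. With the number as a block over all 4 groups, 6 members were called lower for UV in KO. The member medians in KO without the block were -0.35 for all 48, -0.11 for S phase and -0.42 for mitotic members.

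Counted by library, 19 members were lower in each WT_UV library than in each WT_NoUV library, where 14.8% of all genes were, and 17 members in KO, where 25.4% of all genes were. Within each of the 3 same-numbered KO pairs 22 members were lower after UV, where 32.5% of all genes were. Pcna was the only member higher in each KO_UV library than in each KO_NoUV library, at 79.3, 80.4 and 93.1 CPM against 62.1, 70.7 and 59.8 CPM, where 25.3% of all genes were (0.39, adjusted p = 0.0833). The difference between the UV effects in KO and WT was called for 0 members and for 0% of all genes by edgeR. At an unadjusted p under 0.05 it held 0 members and 1.54% of all genes, and DESeq2 called 0 members. For Ccnb1 it was -0.02 (95% interval -0.93 to 0.89) and for Cdk1 -0.15 (95% interval -0.85 to 0.54), both on the log2 scale, so a sizeable difference in either direction would not have been detectable.

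Averaged over WT and KO, a contrast added after the separate tests were seen, 19 members were lower after UV and 0 higher, while 19% of all genes were lower and 18.3% higher. They were 6 of the 7 mitotic entry genes, 6 of the 9 chromosome, kinetochore and spindle genes, 2 of the 6 checkpoint genes, 2 of the 7 G1/S genes, and 1 member each of the licensing, nucleotide and cytokinesis groups. The smallest p values belonged to Ccna2 (-1.19), Cdk1 (-1.01), Ccnb1 (-1.30), Mcm6 (-0.57), Ttk (-0.53), Plk1 (-1.22), Prc1 (-0.56), a bundler of the central spindle, and Aurka (-0.80), the Aurora kinase of the centrosome, with edgeR adjusted p from 0.000246 to 0.00898. Ccne2, a cyclin E that drives S phase entry, was lower by -1.25 (adjusted p = 0.017) and Ccnd1 by -0.56 (adjusted p = 0.0311). Mki67 was not called (-0.29, 95% interval -0.61 to 0.03) and Top2a was (-0.42, adjusted p = 0.026). E2f1 (-0.04) and Mcm2 (-0.04) were close to 0, and Pcna (0.24) and the thymidylate synthase gene Tyms (0.26) were above it without passing. With the hair growth score defined below as a covariate the count was 17, and without KO_NoUV replicate 2 it was 12.

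**Figure D2:**
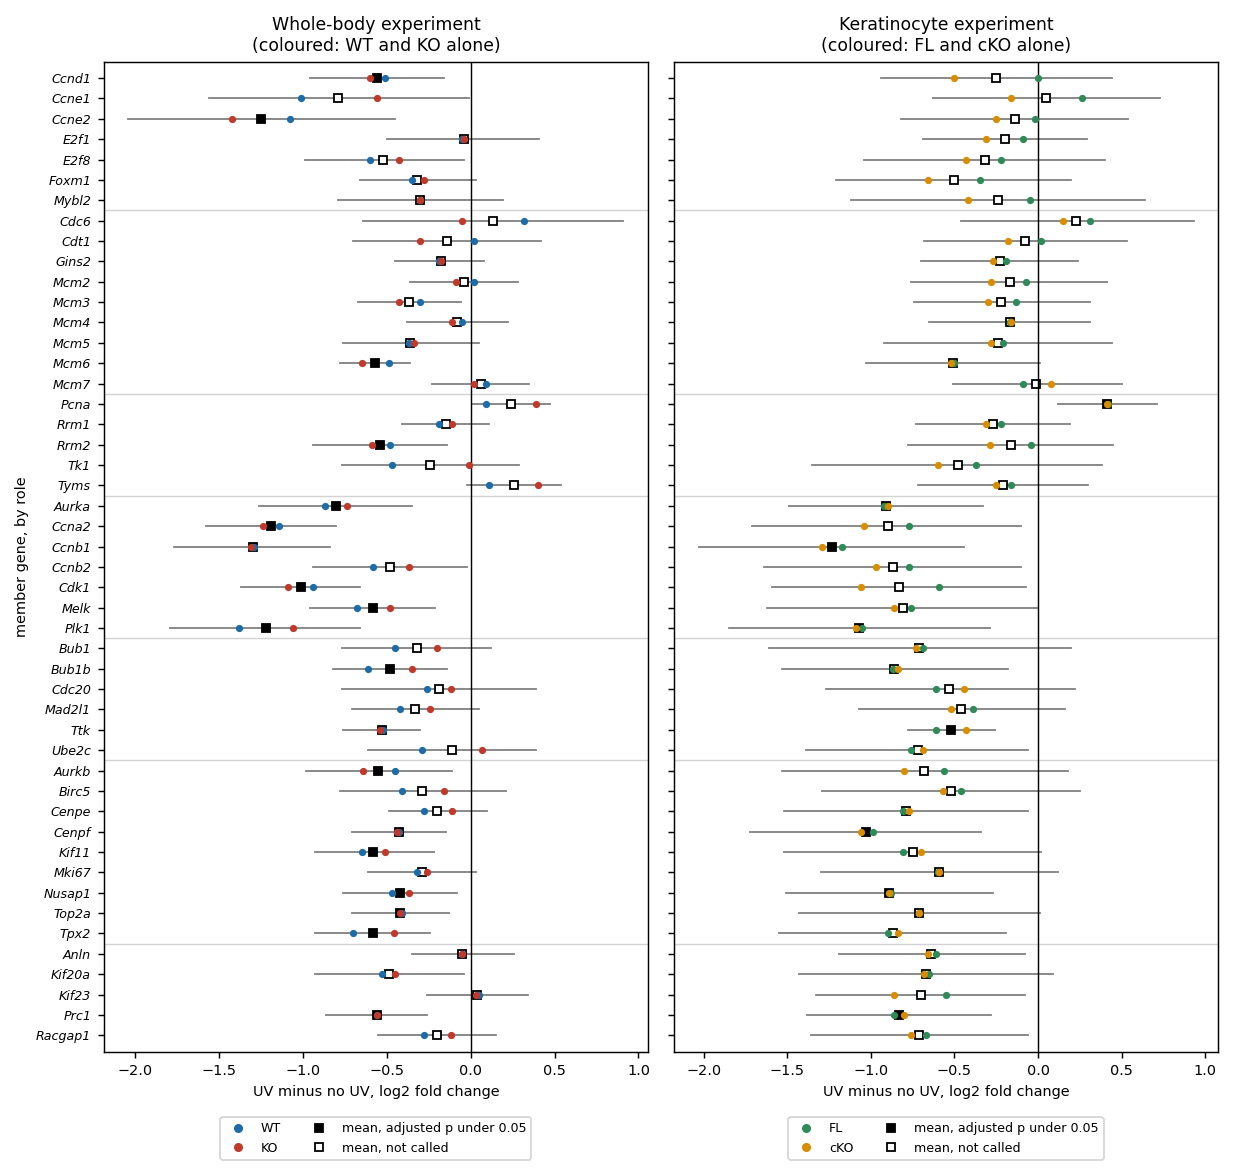
Change after UVB for each member (rows, by role group) on the log2 scale, in the whole-body (left) and keratinocyte (right) experiment; squares are the average of the 2 genotypes with its 95% interval (filled where the edgeR adjusted p was under 0.05), and coloured points are the single genotypes. Mitotic entry genes lie left of 0 in both panels, and Pcna lies right of 0 in both.

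Without UV and after it, the whole-body libraries also differed in other transcripts. Hoxc10 is a homeobox gene of posterior body position, chosen after its values were seen. It had at most 2 counts in each of the 6 NoUV libraries and at least 137 in each of the 6 UV libraries. Its counts in the keratinocyte experiment were 4, 66, 146 and 120 in FL_NoUV and 42, 0, 52 and 128 in FL_UV. There they were 2, 112, 94 and 115 in cKO_NoUV and 2, 2, 0 and 0 in cKO_UV. The summed level of 6 skeletal muscle markers was 5911 to 10280 CPM in WT_NoUV and 10350 to 14250 CPM in WT_UV, and overlapped in KO. That of 6 fibroblast markers was 7686 to 9172 CPM in KO_NoUV and 11310 to 14720 CPM in KO_UV, and overlapped between WT_NoUV (5525 to 9092 CPM) and WT_UV (6590 to 9260 CPM), with no marker of either list at 0. Hair follicle regulators, 8 genes, summed to 45.6 to 49.1 CPM in KO_NoUV and 15.9 to 22.8 CPM in KO_UV, and overlapped in WT (50.59 to 83.11 and 23.5 to 57.57 CPM). The 7 T cell markers summed to 49.44 to 58.88 CPM in KO_NoUV and 26.58 to 28.06 CPM in KO_UV, and overlapped in WT (37.3 to 50.18 and 23.36 to 39.77 CPM). The 4 endothelial markers summed to 224 to 231 CPM in KO_NoUV and 135.6 to 196.2 CPM in KO_UV, and overlapped in WT (172.7 to 207.5 and 111.8 to 173.8 CPM). None of these markers was at 0 either. Because Hoxc10 separated the 6 NoUV from the 6 UV libraries of the whole-body experiment, UV and body position cannot be told apart there. The part of the marker lists in the UV result was not tested. In bulk tissue, fewer dividing cells and less RNA of these genes per cell cannot be told apart.

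In the keratinocyte experiment the error of these differences was larger, 0.52 (SE) for Ccnb1 in FL against 0.30 in WT. Of the 48 members, 1 was lower and 0 higher in FL_UV than in FL_NoUV by edgeR, against 4.09% of all genes called lower and 3.52% called higher. That member was Ttk, at 37.7, 36.6, 23.7 and 33.7 CPM in FL_NoUV replicates 1 to 4 and 25.3, 20.1, 18.2 and 22.3 CPM in FL_UV (-0.61, SE 0.17, adjusted p = 0.0423). Its ranges overlap by 1 library, FL_NoUV replicate 3. The call was lost without any 1 of FL_NoUV replicates 1, 2 and 4 or FL_UV replicates 2, 3 and 4. In cKO, 0 members were called, against 5.15% of all genes called lower and 4.57% called higher. At an unadjusted p under 0.05 there were 6 members and 25.4% of all genes, and DESeq2 called 0 members.

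Same-numbered cKO libraries deviated together, with low replicate 4 libraries in both conditions, and with the number as a block in a fit of the cKO groups alone, added after seeing the data, 30 members were lower and 1 higher, against 10.8% and 9.17% of the 18454 genes tested there. The lower members were 25 of the 27 mitotic members, 3 of the 14 S phase members and 2 of the 7 G1/S members. The last were the transcription factors E2f8 and Foxm1, and no cyclin of that group was called. Ccnb1 fell in each of the 4 pairs, from 51.5 to 23.9, 24.4 to 9.34, 38.2 to 14.1 and 9.17 to 2.98 CPM (-1.36, SE 0.13, edgeR adjusted p = 0.00128). Cdk1 (-1.03, adjusted p = 0.0039), Plk1 (-1.15, adjusted p = 0.00814), Top2a (-0.77, adjusted p = 0.00561) and Mki67 (-0.63, adjusted p = 0.0135) were also called lower in this paired fit, and Pcna was called higher (0.44, adjusted p = 0.0287). Mcm2 (-0.27, adjusted p = 0.187), Ccnd1 (-0.29), E2f1 (-0.35) and Ccne1 (-0.22) did not pass in it. Within each of the 4 pairs 37 members were lower after UV, where 22.2% of all genes were. The count of 30 lower members was 28, 23, 17 and 16 with pair 1, 2, 3 or 4 left out, of which 23, 22, 17 and 16 were mitotic, while 3.1% to 9% of all genes were lower. Same-numbered FL libraries did not all deviate together and were not fitted as pairs, so these counts do not compare cKO with FL. The labels do not name pairs, and the pairing was chosen from these same values, so the paired p-values depend on that choice. With the number as a block over all 4 groups, none of the members was called for UV in cKO. Hoxc10 also differed within cKO pairs 2, 3 and 4, at 112, 94 and 115 counts without UV and 2, 0 and 0 after it. Pair 1 held 2 counts in each library. The part of body position in the paired result was not tested.

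Ccnb1 was at 58.1, 58.0, 32.0 and 54.7 CPM in FL_NoUV and 31.9, 17.8, 17.1 and 23.2 CPM in FL_UV, with no overlap (-1.17, 95% interval -2.29 to -0.05, adjusted p = 0.197). In cKO, where its levels overlapped, the value without pairing was not called (-1.29, 95% interval -2.43 to -0.16, adjusted p = 0.14). Plk1 was at 17.3, 30.9, 16.5 and 30.9 CPM in FL_NoUV and 13.98, 6.06, 11.1 and 15.1 CPM in FL_UV (-1.05, adjusted p = 0.242), and it was -1.09 in cKO. Over all 48 members the median was -0.55 in FL and -0.59 in cKO, with -0.15 and -0.27 for S phase members and -0.76 and -0.80 for mitotic members. The medians over all genes were 0.01 in both. The 6 fibroblast markers, none at 0, summed to 3891 to 6483 CPM in FL_NoUV and 7341 to 10260 CPM in FL_UV, and overlapped in cKO (4816 to 5912 and 4150 to 8645 CPM). The 4 adipocyte markers, none at 0, summed to 96.19 to 151.8 CPM in FL_NoUV and 177.7 to 321.2 CPM in FL_UV, and overlapped in cKO (100.2 to 294.6 and 148.2 to 568.9 CPM). The part of both lists in the result was not tested.

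In FL, 6 members (Aurka, Ccnb1, Ccnb2, Nusap1, Plk1 and Prc1) were lower in each UV library than in each unexposed one, where 7.79% of all genes were. In cKO 0 members were, against 9.05% of all genes. The difference between the UV effects in cKO and FL was called for 0 members and for 0% of all genes by edgeR and for 0 members by DESeq2, with 0 members and 1.26% of all genes at an unadjusted p under 0.05. For Ccnb1 it was -0.12 (95% interval -1.69 to 1.45).

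Averaged over FL and cKO, also added after the separate tests were seen, 7 members were lower after UV and 1 was higher, against 12.3% and 12% of all genes. The share of lower members thus lay near that of all genes, and the share of higher members lay below it. The lower members were Ttk (-0.52, adjusted p = 0.00612), Aurka (-0.91), Ccnb1 (-1.23), Prc1 (-0.83), Cenpf (-1.03), a large kinetochore protein, Nusap1 (-0.89), which binds spindle microtubules, and Plk1 (-1.07), the last 6 with adjusted p from 0.024 to 0.0455. All 7 were also among the 19 of the whole-body experiment, which is 36.8% of the whole-body calls and 87.5% of the 8 calls here. The overlap over all genes was not counted, so this overlap cannot be called particular to the members. The higher member was Pcna, at 46.0, 54.5, 38.3 and 61.6 CPM in FL_NoUV and 80.7, 54.6, 56.7 and 76.8 CPM in FL_UV, and at 51.2, 40.4, 43.6 and 27 CPM in cKO_NoUV and 63.4, 49.5, 55.8 and 46.2 CPM in cKO_UV (0.41, 95% interval 0.12 to 0.71, adjusted p = 0.0409). Mki67 (-0.59), Top2a (-0.71) and Cdk1 (-0.83) were lower without passing, and Mcm2 (-0.17), Ccne1 (0.05), E2f1 (-0.20) and Ccnd1 (-0.25) were closer to 0. The count of 8 was 3 without FL_NoUV replicate 2, cKO_NoUV replicate 1, FL_UV replicate 2 or FL_UV replicate 3, 4 without FL_NoUV replicate 4 or FL_UV replicate 4, 2 without cKO_UV replicate 2, 1 without cKO_NoUV replicate 3, 16 without cKO_NoUV replicate 4 and 14 without cKO_UV replicate 1.

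**Figure D3:**
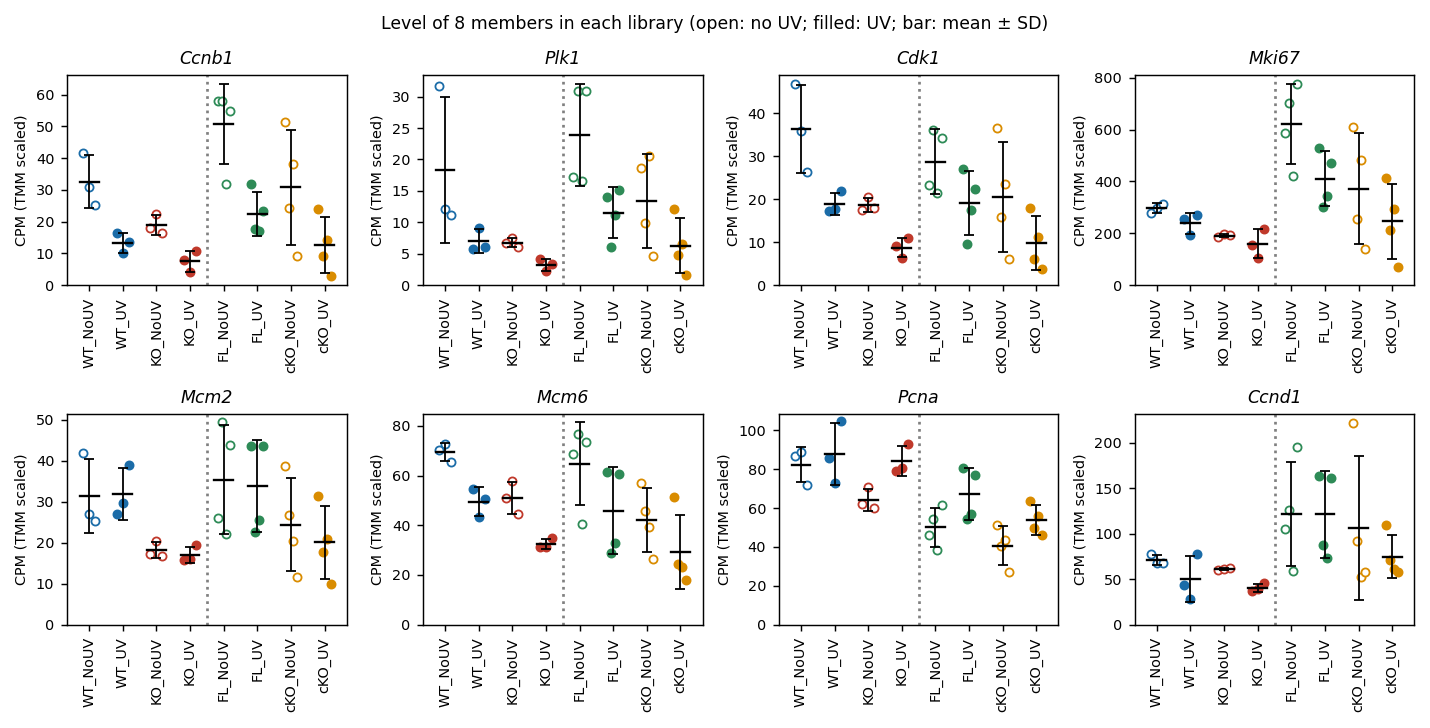
Level of 8 members (panels) in CPM in each of the 28 libraries by group; open points are NoUV libraries, filled points UV libraries, and bars the mean ± SD of 3 (whole-body) or 4 (keratinocyte) libraries; the dotted line separates the experiments. Ccnb1, Plk1 and Cdk1 have lower means after UV in all 4 genotypes, Mcm2 has means of 31.4 and 31.8 CPM in WT, and Pcna has higher means after UV in all 4. The NoUV and UV libraries of Pcna overlap in every genotype but KO, and in WT its highest value is that of WT_UV replicate 3.

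The 2 classes were also set against each other within each library. The mean log2 CPM of the 27 mitotic members minus that of the 14 S phase members was 0.29, 0.42 and 0.37 in WT_NoUV and 0.15, 0.00 and -0.22 in WT_UV. It was 0.46, 0.45 and 0.39 in KO_NoUV and 0.23, -0.24 and 0.26 in KO_UV. In FL_NoUV it was 0.91, 0.49, 0.57 and 0.64, and in FL_UV 0.00, 0.22, 0.15 and -0.23. In these 3 genotypes each UV library lay below each unexposed library. In cKO the ranges overlapped, with 0.68, 0.03, 0.91 and 0.05 without UV and 0.00, -0.05, 0.15 and -0.76 after it, lower after UV within each same-numbered pair. The values are given as a description, with no test.

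**Figure D4:**
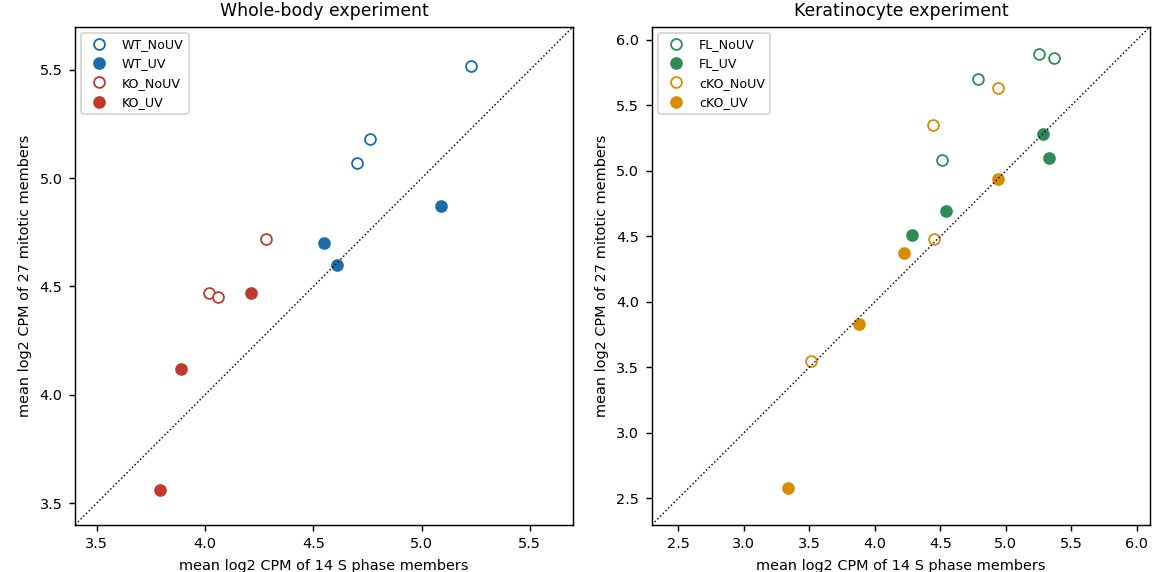
Mean log2 CPM of the 14 S phase members (x axis) and of the 27 mitotic members (y axis) in each library of the whole-body (left) and keratinocyte (right) experiment; open points are NoUV, filled points UV, and the dotted line marks equal means. Unexposed WT, KO and FL libraries lie 0.29 or more above the line, while UV libraries lie nearer to it or below it.

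Promoters of members that fell together after UVB, and of Cdc6 as an S phase member that was not called lower, are printed from RefSeq (build GRCm38.p6). They are shown because the 2 classes of members also differ in promoter sequence. In WT, Cdc6 was at 7.23, 6.19 and 7.73 CPM without UV and at 3.68, 4.36 and 18.3 CPM after it, so its lack of a fall there rested on WT_UV replicate 3. As background, many genes of G2 and mitosis carry a cell cycle genes homology region (CHR) near the start site, often beside CCAAT boxes, through which the DREAM and MuvB complexes act, and many S phase genes carry E2F sites. The table held a promoter window for 39 of the 48 members, from 250 bases before to 50 after the start site: 12 S phase members, 23 mitotic members and 4 G1/S members. Both strands were searched for TTTGAA or TTCGAA (CHR), for TTTCCCGC, TTTCGCGC, TTTGCCGC or TTTGGCGC (E2F) and for CCAAT. The windows lie at chr13:100786437-100786736 (Ccnb1, minus strand), chr10:69352863-69353162 (Cdk1, minus strand), chr7:122159185-122159484 (Plk1, plus strand), chr9:83834439-83834738 (Ttk, plus strand), chr1:128359656-128359955 (Mcm6, minus strand) and chr11:98907901-98908200 (Cdc6, plus strand). Each is written 5′ to 3′ along the gene, with the start site after base 250 and with matches in capitals.
Ccnb1: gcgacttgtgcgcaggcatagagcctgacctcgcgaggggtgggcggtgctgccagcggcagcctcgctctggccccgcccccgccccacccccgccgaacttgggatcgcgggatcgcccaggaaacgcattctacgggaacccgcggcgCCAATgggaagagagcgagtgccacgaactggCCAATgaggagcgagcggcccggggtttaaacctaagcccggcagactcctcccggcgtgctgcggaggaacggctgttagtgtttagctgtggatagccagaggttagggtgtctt
Cdk1: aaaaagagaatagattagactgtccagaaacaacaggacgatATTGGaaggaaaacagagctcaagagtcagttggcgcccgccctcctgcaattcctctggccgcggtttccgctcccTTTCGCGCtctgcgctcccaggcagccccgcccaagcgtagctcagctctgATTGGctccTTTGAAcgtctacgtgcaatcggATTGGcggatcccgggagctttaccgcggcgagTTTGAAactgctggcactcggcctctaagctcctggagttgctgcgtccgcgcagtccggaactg
Plk1: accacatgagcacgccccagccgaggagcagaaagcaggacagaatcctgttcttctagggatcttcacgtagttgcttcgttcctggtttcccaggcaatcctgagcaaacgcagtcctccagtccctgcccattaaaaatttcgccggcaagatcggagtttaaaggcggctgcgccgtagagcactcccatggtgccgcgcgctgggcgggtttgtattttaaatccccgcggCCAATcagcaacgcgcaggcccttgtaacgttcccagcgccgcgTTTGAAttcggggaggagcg
Ttk: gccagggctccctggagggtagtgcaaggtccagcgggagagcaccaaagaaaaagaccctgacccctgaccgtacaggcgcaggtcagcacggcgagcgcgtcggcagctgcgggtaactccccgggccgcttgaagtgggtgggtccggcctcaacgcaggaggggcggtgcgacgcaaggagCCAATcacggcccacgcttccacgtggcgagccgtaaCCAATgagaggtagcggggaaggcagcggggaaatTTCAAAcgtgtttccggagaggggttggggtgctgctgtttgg
Mcm6: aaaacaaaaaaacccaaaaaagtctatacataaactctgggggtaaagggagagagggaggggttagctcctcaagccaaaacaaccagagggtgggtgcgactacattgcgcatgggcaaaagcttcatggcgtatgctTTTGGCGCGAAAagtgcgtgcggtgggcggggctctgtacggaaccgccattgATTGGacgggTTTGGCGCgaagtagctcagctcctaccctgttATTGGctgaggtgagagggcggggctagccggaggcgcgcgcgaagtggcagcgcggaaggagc
Cdc6: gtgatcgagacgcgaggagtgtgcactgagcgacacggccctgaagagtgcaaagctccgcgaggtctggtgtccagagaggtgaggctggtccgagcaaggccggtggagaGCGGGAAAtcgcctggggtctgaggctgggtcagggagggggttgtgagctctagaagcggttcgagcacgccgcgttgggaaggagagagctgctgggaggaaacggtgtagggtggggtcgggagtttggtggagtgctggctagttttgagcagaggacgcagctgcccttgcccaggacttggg

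In these windows Cdk1 held 2 CHR words, 71 and 15 bases before the start site, with 3 CCAAT words and 1 E2F word. Plk1 and Ttk each held 1 CHR word just after the start site, and Ccnb1 held 2 CCAAT words and no CHR word of these letters. Mcm6 held 3 E2F words, 2 of them overlapping, and Cdc6 held 1. Within 50 bases of the start site on either side, a CHR word was present in 16 of 23 mitotic members (69.6%), in 0 of 12 S phase members and in 5.29% of 27025 genes with a window. Over all 300 bases a CHR word was present in 17 of 23 mitotic members (73.9%), in 2 of 12 S phase members (16.7%) and in 19.4% of all genes. In the whole 300 bases, an E2F word was present in 6 of 12 S phase members (50%), in 1 of 23 mitotic members (4.35%) and in 2.32% of all genes. A CCAAT word was present in 18 of 23 mitotic members (78.3%), in 8 of 12 S phase members (66.7%) and in 37.9% of all genes. A match is a description of letters and not of binding.

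The second question was whether loss of Vsir changed division genes. In the whole-body experiment all role groups were at lower levels in KO skin than in WT skin, without UV and after it, although few genes of any kind passed the threshold in either condition alone. Without UV, 48 of 48 members had a negative log2 fold change, with a median of -0.79 against -0.01 for all genes, and 0 were called by edgeR, against 0.00982% of all genes. At an unadjusted p under 0.05 there were 40 members and 15.8% of all genes, and DESeq2 called 22 members lower, against 1.15% of all genes. Each KO_NoUV library lay below each WT_NoUV library for 44 members, where 11.7% of all genes did. After UV, 47 of 48 had a negative log2 fold change, with a median of -0.68, and 0 were called, against 0.0442% of all genes. In this condition 37 members and 15.1% of all genes had an unadjusted p under 0.05. DESeq2 called 13 members lower, against 0.697% of all genes, and the libraries did not overlap for 28 members, where 10.2% of all genes lay lower in KO.

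Averaged over NoUV and UV, a contrast added after those results were seen, 33 members were lower in KO and 0 higher, against 3.52% of all genes lower and 3.93% higher. They held 8 of 9 licensing genes, 4 of 5 nucleotide and fork genes, 7 of 7 mitotic entry genes, 3 of 6 checkpoint genes, 6 of 9 chromosome and spindle genes, 3 of 5 cytokinesis genes and 2 of 7 G1/S genes. The last were the transcription factors Foxm1 and Mybl2, and no cyclin of that group was called. Here the S phase median (-0.77) and the mitotic median (-0.70) were close, unlike after UV.

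Foxm1, a transcription factor of G2 and mitotic genes, was at 31.0, 18.9 and 20.3 CPM in WT_NoUV and 11.5, 11.1 and 10.45 CPM in KO_NoUV, and at 17.6, 18.7 and 18.7 CPM in WT_UV and 8.45, 6.64 and 12.0 CPM in KO_UV. KO libraries were lower in both conditions (-1.06, SE 0.16, edgeR adjusted p = 0.00743). Mcm5, another helicase subunit, was at 61.1, 32.9 and 26.9 CPM against 15.5, 20.2 and 15.9 CPM without UV and at 25.9, 33.7 and 34.0 CPM against 13.8, 10.9 and 15.9 CPM after it (-1.22, adjusted p = 0.00795). Cdk1 (-1.03), Aurkb (-1.27), the Aurora kinase of the chromosomal passenger complex, Mcm3 (-0.88), Mybl2 (-1.36), Mcm2 (-0.85) and the thymidine kinase gene Tk1 (-1.39) followed, with adjusted p up to 0.0125. Mki67 was at 279, 300 and 315 CPM in WT_NoUV against 184, 197 and 193 CPM in KO_NoUV, and at 254, 193 and 270 CPM in WT_UV against 155, 106 and 217 CPM in KO_UV (-0.61, adjusted p = 0.0334). Top2a (-0.62, adjusted p = 0.0229), Plk1 (-1.28, adjusted p = 0.019) and Ccnb1 (-0.80, adjusted p = 0.0428) were also called. Ccnd1 (-0.26, adjusted p = 0.363), Pcna (-0.21, adjusted p = 0.209), Ccne1 (-1.08, adjusted p = 0.0762) and E2f1 (-0.70, adjusted p = 0.0595) were not.

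The count of 33 was 14 without KO_NoUV replicate 1, 15 without KO_NoUV replicate 2, 13 without KO_UV replicate 2 and 21 without KO_NoUV replicate 3, and 28 with WT_NoUV 3 and WT_UV 3 both left out. Of the 33, 12 passed under every alternative run, among them Foxm1, Cdk1, Mcm2, Mcm5 and Tk1. Markers of other cells moved with the genotype. The summed level of 7 suprabasal keratinocyte markers was 20010 to 27190 CPM in WT_NoUV and 10270 to 14900 CPM in KO_NoUV, and 15520 to 24040 CPM in WT_UV and 7964 to 14030 CPM in KO_UV. That of 6 skeletal muscle markers was 5911 to 10280 CPM in WT_NoUV and 12500 to 16960 CPM in KO_NoUV, and overlapped after UV. The 8 hair follicle regulators summed to 50.59 to 83.11 CPM in WT_NoUV and 45.56 to 49.11 CPM in KO_NoUV, and to 23.5 to 57.57 CPM in WT_UV and 15.86 to 22.76 CPM in KO_UV. Without UV the 4 endothelial markers, at 172.7 to 207.5 CPM in WT_NoUV and 224 to 231 CPM in KO_NoUV, also did not overlap. The sums of the 8 basal keratinocyte markers overlapped without UV, at 6072 to 13230 CPM in WT_NoUV and 5736 to 6417 CPM in KO_NoUV. Krt14, which is among them, did not overlap, at 6036, 1627 and 1247 CPM in WT_NoUV and 1044, 1079 and 1079 CPM in KO_NoUV. After UV the 8 basal keratinocyte markers were lower in KO, at 6680 to 11650 CPM in WT_UV and 5125 to 6323 CPM in KO_UV. The 6 fibroblast markers were higher, at 6590 to 9260 CPM in WT_UV and 11310 to 14720 CPM in KO_UV, as were the 7 macrophage and dendritic cell markers, at 380.2 to 521.4 CPM in WT_UV and 542.1 to 876.9 CPM in KO_UV. No marker of these lists was at 0, and their part in the result was not tested.

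In the keratinocyte experiment, 48 of 48 members had a negative log2 fold change in cKO against FL in each condition, with medians of -0.70 without UV and -0.78 after it, and 0 passed the threshold of edgeR or DESeq2 in either. Of all genes, 0% were called without UV and 0% after it. At an unadjusted p under 0.05 there were 2 members and 4.71% of all genes without UV and 6 members and 5.3% of all genes after it. The libraries overlapped for 48 of 48 members without UV, where 0.791% of all genes lay lower in each cKO library, and for all but Nusap1 after UV, where 1.34% did. Averaged over conditions, 0 members and 0% of all genes were called by edgeR, 0 members by DESeq2, and 37 members and 11% of all genes had an unadjusted p under 0.05, with Mad2l1, a spindle checkpoint protein, at the smallest p (-0.91, adjusted p = 0.366).

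The spread within groups was as large as these differences. Mki67 was at 588, 702, 422 and 777 CPM in FL_NoUV, at 610, 254, 484 and 138 CPM in cKO_NoUV, at 528, 300, 343 and 471 CPM in FL_UV and at 414, 214, 292 and 68.9 CPM in cKO_UV. The lowest library of each cKO group was replicate 4, and the Krt14 of both was the lowest of the 8 cKO libraries, at 792 CPM without UV and 732 CPM after it. With cKO_NoUV 4 and cKO_UV 4 left out, a choice made after their values were seen, the medians were -0.45 without UV and -0.51 after it, again with 0 members called. Without UV the 4 erythroid markers, none at 0, summed to 13.38 to 15.16 CPM in FL_NoUV and 17.37 to 44.56 CPM in cKO_NoUV, and their part in the difference was not tested.

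The third question was how the members followed hair growth from library to library. A hair growth score was taken as the mean log2 CPM of hair keratin, inner root sheath and hair follicle regulator genes that passed the expression filter, 12 of the 22 matched genes in the whole-body experiment and 22 of 22 in the keratinocyte experiment. In the keratinocyte experiment the score was 1.25, 3.91, -1.03 and 6.42 in FL_NoUV, 4.33, -0.16, -0.86 and 4.03 in FL_UV, 7.58, -0.99, -1.14 and 0.74 in cKO_NoUV and 1.97, -0.91, -0.58 and -0.96 in cKO_UV. Krt71, an inner root sheath keratin, ran from 0.10 to 3251 CPM over these 16 libraries. In the whole-body experiment 2 libraries stood apart, WT_NoUV replicate 3 with 2.36 and WT_UV replicate 3 with 2.33, while the other 10 lay between -1.09 and 0.16. The score was -0.34, -0.28 and 0.16 in KO_NoUV and -0.93, -1.09 and -0.44 in KO_UV, with no overlap. WT replicates 1 and 2 had -0.02 and -0.18 without UV and -0.51 and -0.58 after it.

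Within groups of the keratinocyte experiment, members were higher in libraries with a higher score. By edgeR, 17 members had a positive slope on the score and 0 a negative slope at the threshold, against 8.62% of all genes with a positive and 7.98% with a negative slope. All 48 slopes were positive, with a median of 0.13 log2 units per unit of score (the median of all genes was 0.00). By role, 8 of 9 licensing genes, 4 of 5 nucleotide and fork genes and 4 of 7 G1/S genes were called, with 1 of 7 mitotic entry genes, Melk, and 0 of the 20 members of the other 3 groups. The median slope was 0.12 for both S phase and mitotic members, and the split by role changed with the libraries: 11 S phase and 19 mitotic members were called without cKO_NoUV replicate 3, and 13 and 19 with both replicate 4 libraries of cKO left out.

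Ccnd1, the cyclin D gene, had the smallest p. Ccnd1 was at 105, 126, 58.6 and 195 CPM in FL_NoUV, 163, 86.9, 73.2 and 162 CPM in FL_UV, 222, 91.6, 52.6 and 57.7 CPM in cKO_NoUV and 110, 71.0, 60.9 and 57.2 CPM in cKO_UV. In each of the 4 groups the library with the highest score had the highest Ccnd1, while cKO_NoUV replicate 4 had a higher score but a lower level than replicate 2. Its slope was 0.21 (SE 0.02, edgeR adjusted p = 7.16e-06) and it passed under all 22 alternatives run. The 5 other largest slopes were those of Mybl2 (0.22, adjusted p = 0.0134), Tk1 (0.19, adjusted p = 0.0336), Cdc6 (0.18, adjusted p = 0.0133), the checkpoint kinase Bub1 (0.18, adjusted p = 0.0671) and Ccne2 (0.17, adjusted p = 0.0184). The smallest were those of Ttk (0.03), Anln (0.06), a scaffold of the contractile ring, Pcna (0.07, adjusted p = 0.0187), Nusap1 (0.08), Gins2 (0.09) and Tyms (0.09), of which Pcna alone was called. Mki67 (0.13, adjusted p = 0.105), Top2a (0.13, adjusted p = 0.111), Cdk1 (0.15, adjusted p = 0.0609), Ccnb1 (0.13, adjusted p = 0.141) and Plk1 (0.12, adjusted p = 0.174) were not called, and Mcm2 (0.14, adjusted p = 0.0151) and Ccne1 (0.16, adjusted p = 0.0279) were.

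The count of 17 was 3 without cKO_NoUV replicate 1, the library with the highest score, 6 without FL_NoUV replicate 3, 7 without FL_UV replicate 4, 9 without FL_UV replicate 1, 10 without any 1 of FL_NoUV replicate 4, FL_UV replicate 2, FL_UV replicate 3 and cKO_UV replicate 1, and 36 without cKO_NoUV replicate 3. With both replicate 4 libraries of cKO left out it was 38.

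**Figure D5:**
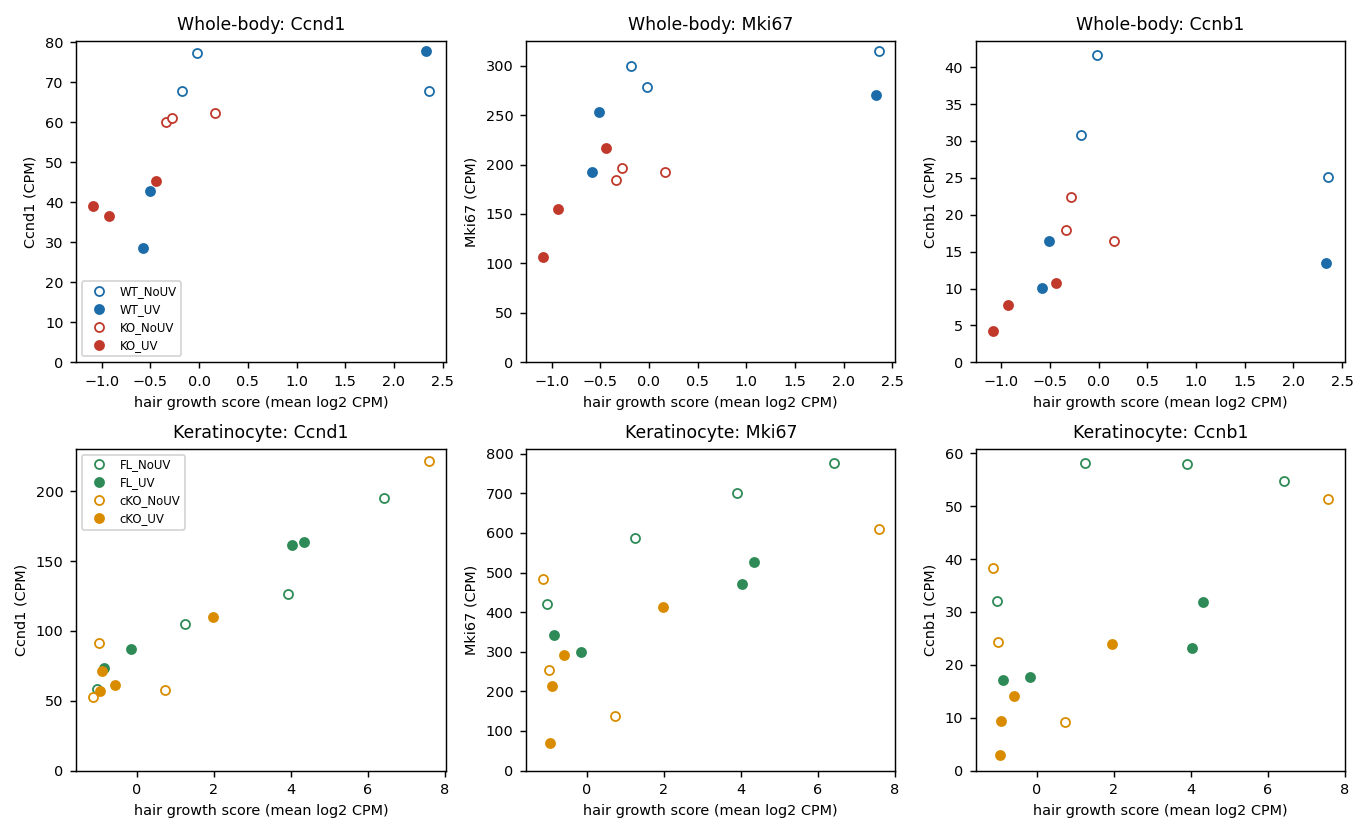
Level of Ccnd1, Mki67 and Ccnb1 (y axes, CPM) against the hair growth score (x axes, mean log2 CPM) in each library of the whole-body (top) and keratinocyte (bottom) experiment; open points are NoUV, filled points UV. In the keratinocyte experiment Ccnd1 is at 52.6 to 91.6 CPM at scores below 0 and at 105 CPM or more at scores above 1. The library between these scores, cKO_NoUV replicate 4, has a score of 0.74 and Ccnd1 at 57.7 CPM. Ccnb1 of the UV libraries of the keratinocyte experiment is at 2.98 to 17.75 CPM at scores below 0 and at 23.2 to 31.9 CPM at scores above 1.

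In the whole-body experiment 0 members had a slope past the threshold by edgeR, against 0.133% of all genes with a positive and 0.0442% with a negative slope, and 6 members and 13% of all genes had an unadjusted p under 0.05. The median slope of the members was 0.03, with 0.23 for G1/S genes and 0.04 for both the licensing and the nucleotide group. It was 1.17 with WT_NoUV 3 and WT_UV 3 left out, 0.14 without the first alone and -0.05 without the second alone, with 0 members called in each. The largest slopes were those of Cdc6 (0.54, 95% interval 0.26 to 0.82, adjusted p = 0.143), Ccne2 (0.52, adjusted p = 0.174), Ccne1 (0.40), E2f8 (0.23), Ccnd1 (0.23) and Bub1 (0.22). The smallest were those of Plk1 (-0.20), Ube2c (-0.16), Tk1 (-0.12), Cdc20 (-0.10), Bub1b (-0.08) and Anln (-0.08). WT_UV replicate 3, with the high score, had Ccnd1 at 78.0 CPM against 42.9 and 28.5 CPM in replicates 1 and 2, Ccne1 at 6 CPM against 2.13 and 1.41 CPM, and Cdc6 at 18.3 CPM against 3.68 and 4.36 CPM. Its Ccnb1, at 13.5 CPM, lay between the 16.4 and 10.0 CPM of those libraries. The slope was not run with DESeq2.

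Other genes of the cell cycle were read from a list of 78, of which 77 were tested in both experiments. After UV, 4 rose and 14 fell in WT, 2 rose and 14 fell in KO, 3 rose and 3 fell in FL, and 4 rose and 1 fell in cKO. Of all genes, 8.91% rose and 9.84% fell in WT, 11.3% and 11.1% in KO, 3.52% and 4.09% in FL and 4.57% and 5.15% in cKO, so the FL and cKO counts lay near the background. Cdkn1a, which encodes the CDK inhibitor p21 and is a target of p53, rose in all 4, by 1.06 in WT (edgeR adjusted p = 0.0135), 0.94 in KO, 1.08 in FL and 0.86 in cKO on the log2 scale. Its CPM were 217, 160 and 122 in WT_NoUV and 249, 449 and 342 in WT_UV. In WT and KO the smallest p values were those of Gadd45a, a stress-induced arrest gene (1.22 and 1.37), E2f3, an E2F activator (-1.34 and -1.16), Ccng2, an atypical cyclin (-1.10 and -1.08) and Nuf2, a kinetochore gene (-1.18 and -1.10). In FL and cKO they included Btg2, an antiproliferative p53 target (1.25 and 1.12), and Cdkn1b, which encodes the inhibitor p27 (-0.44 and -0.43).

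Between genotypes, averaged over conditions, 1 was higher and 29 were lower in KO than in WT, against 3.93% and 3.52% of all genes. The lower ones were led by the replication genes Cdc45 (-0.86), Uhrf1 (-1), Pole (-0.76) and Lig1 (-0.76). On the hair growth score of the keratinocyte experiment 28 of the 77 had a positive and 2 a negative slope, against 8.62% and 7.98% of all genes. They were led by Mycn, a Myc family factor (0.46, edgeR adjusted p = 6.48e-05). In the whole-body experiment 1 had a positive slope, also Mycn (1.3, edgeR adjusted p = 0.0116), against 0.133% of all genes.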

How the data were processed

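Each experiment was analysed from its own table of counts per gene, deposited by the authors as whole, unnormalized counts. Per the submitters' processing notes the tools were cutadapt 4.6, HISAT2 2.1.0 and featureCounts of Subread, and the named build is GRCm38; strand and multimapping settings are not given in the sources used here. Columns were matched to samples by the column names in the labels. Genes were tested with edgeR 4.0.16 (R 4.3.3): TMM scaling, filterByExpr, 1 coefficient per group, glmQLFit (robust) and glmQLFTest, Benjamini-Hochberg adjustment over all 20365 (whole-body) or 19718 (keratinocyte) genes tested, with a threshold of 0.05. The 4 groups of an experiment shared 1 estimate of spread. SE is the size of the log2 fold change divided by the square root of F, and CPM are scaled by TMM. The hair growth slope was fitted within groups. The script was tested on simulated counts.

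Depth was 7.12 to 43.84 M counts per library, and its number limits the precision of low genes. The labels do not say what a shared replicate number means, and p-values measure the spread between these libraries. Deviations from the group means of same-numbered libraries correlated over 0.1 in every pair for UV in KO (0.13 to 0.18, 3 pairs) and UV in cKO (0.23 to 0.49, 4 pairs), and each correlated best with its own number. Each of the other 6 comparisons of 2 groups held at least 1 negative correlation. The column names of the keratinocyte experiment carry numbers that lie close together for replicate 1 of the 4 groups, FL included. The same holds for replicate 4, while replicates 2 and 3 share 1 run of numbers. What these numbers mean is not given. The pairs were chosen from the replicate numbers and the correlations in these data, and KO and cKO were also fitted with the number as a block.

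The members and lists were chosen with earlier results of these data known. The rule for named genes took Mki67, Top2a, Cdk1, Ccnb1, Plk1, Mcm2, Pcna, Ccnd1, Ccne1 and E2f1, members past the threshold (the 8 with the smallest p first), the 6 largest and 6 smallest hair slopes, up to 6 other cell cycle genes per comparison, Cdkn1a, Vsir, hair markers, Krt5 and Krt14. Alternatives were RLE scaling, no filter, DESeq2 1.42.0, only the 2 groups compared, a replicate block, the hair growth score as covariate, another score and each library left out. The averaged comparisons, 3 left-out pairs of libraries and the paired fits of KO and cKO were added after seeing the data.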

Additional observations from a re-analysis of the deposited data

Results flagged for a closer look

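In groups of 4 libraries, a value was singled out where 1 library lay far from the other 3. Ccnb1 was at 31.99 CPM in FL_NoUV replicate 3, while the other 3 libraries lay between 54.74 and 58.07 CPM. The hair growth score was 1.97 in cKO_UV replicate 1, while the other 3 lay between -0.96 and -0.58. Of 56 such groups 2 were singled out, and chance alone does so in about 1 in 20.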

How the results depend on the processing

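Over 1951 alternative values, 1512 kept their direction and side of the threshold (or, for counts, stayed within 1.5 times), 383 lost their call, 56 counts moved and 0 changed direction; the causes were not tested. Without the filter on low counts, members called were 11 for UV in WT, 9 and 8 for KO against WT without and after UV, 0 for UV in FL, 2 for UV averaged over FL and cKO, and 1 and 7 for the hair slope in the whole-body and keratinocyte experiment. Of all genes, 3723 were then called for UV in WT, against 3817 with the filter. For KO against WT without and after UV, 185 and 162 genes were called, against 2 and 9 with the filter. The other counts of this section come without the share of all genes, so they do not tell a change in the members from a change in all calls. DESeq2 called 8 for UV in KO, and 22 and 13 for KO against WT without and after UV. With only the 2 groups compared in the fit, UV gave 2 in WT, 11 in KO (1 of them higher) and 6 in FL. With the hair growth score as covariate UV gave 2 in FL (1 higher and 1 lower) and 1, higher, in cKO, and with the regulator score the keratinocyte slope gave 30. With both replicate 3 libraries of WT left out UV in KO gave 9 (1 higher). With both replicate 4 libraries of cKO left out UV gave 3 in FL and 16 averaged, and the slope 38. With the 2 shallowest libraries (FL_NoUV replicate 1 and cKO_UV replicate 3) left out UV gave 0 in FL and 2 averaged. Leaving out 1 library at a time gave 4 to 9 for UV in WT, 4 to 8 in KO, 0 to 1 in FL, 12 to 26 averaged over WT and KO, 1 to 16 averaged over FL and cKO, 13 to 35 for KO against WT averaged, and 3 to 36 for the keratinocyte slope. Where this left 2 libraries in a group, the spread was pooled over groups.

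With the replicate block in a fit of the 2 paired groups alone, members called were 14 for UV in KO (1 higher) and 31 for UV in cKO (1 higher). With a replicate block over all 4 groups the counts were 7 for UV in WT, 6 in KO, 1 in FL and 0 in cKO, 20 and 11 for the averaged UV effects, 33 for KO against WT averaged, and 24 for the keratinocyte slope. The number of libraries and the depth of the shallowest ones limit what low members such as Mybl2 can show.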
